A study of Homo sapiens with 5 samples.

Results

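The genes described here are the well-expressed antisense transcripts of the human embryonic stem cell line H9, together with the genes they overlap on the opposite strand. Their members were the genes that the count table annotates as antisense and whose mean normalized count over the mock control samples was at least 100. Small nucleolar RNA host genes, transcripts of the HOX clusters, imprinted antisense RNAs and a few single genes were left out by name, which removed 6 genes. This left 152 members out of 3763 antisense genes and 33857 listed genes. The members were thus selected on their control values, which form one side of every comparison below.

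Poly(A)+ RNA was collected from 2 mock control samples, made with the empty CRISPR vector, and from 3 CFIm25-m samples, and sequenced as paired ends. All 5 were grown as H9 cells in mTeSR medium. The CFIm25-m samples are clones made with different guide RNAs against NUDT21, the gene of the 25 kDa subunit of cleavage factor Im, and they still make CFIm25, in reduced amounts and with small changes at its N-terminus, although their labels say KO. Each group is thus a small set of clonal lines. The p-values below rest on the spread between these clones, with each gene's variance drawn toward that of other tested genes. The total was between 18754108 and 23372391 reads per sample. NUDT21 (ENSG00000167005) had a normalized count of 6503 and 6398 in mock control and 4035, 3281 and 3400 in CFIm25-m (log2 fold change -0.86, SE 0.11, adjusted p = 0.00431, limma-trend). All 12 embryonic stem cell markers examined passed the filter on low counts. Their summed normalized count was 223159 and 226475 in mock control and lower in every CFIm25-m clone, between 198008 and 199529. LIN28A and DNMT3B had the highest counts of the 12 and were lower in every clone. POU5F1 was higher in every clone (30200 and 31427 in mock control, 34789, 38899 and 33173 in CFIm25-m), and so was TDGF1. The other 10 had log2 fold changes below 0, with L1TD1 at -0.011 and TERF1 at -0.0077. ZFP42 (REX1) was the 1 marker called, with 2306 and 2403 in mock control and 4.01, 3.6 and 0 in CFIm25-m (adjusted p = 0.000123). Markers of other cells summed to between 10995 and 14140 (neural, mostly NES), 15024 and 18274 (fibroblast), 149 and 276 (trophoblast), and 7.72 and 35.6 (mesoderm and endoderm), and none of them was called. Their part in the results below was not tested.

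Antisense transcripts are long noncoding RNAs made from the strand opposite to another gene. Many start next to the promoter of a protein-coding gene and run away from it, so that the pair shares a start region, while others run into the 3′ end of their neighbour or lie inside it. In nuclei many such RNAs are short-lived, since early polyadenylation sites and the nuclear exosome limit them. CFIm25 binds UGUA elements upstream of cleavage sites and takes part in the choice between alternative polyadenylation sites, and sequencing of poly(A)+ RNA samples the antisense RNAs that carry a poly(A) tail.

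A change of 1 on the log2 scale is a doubling. Fold changes are given as log2(normalized count + 1) in CFIm25-m minus mock control, and a gene was called when its p-value, adjusted by the Benjamini-Hochberg method over all 19232 tested genes, was under 0.05 in limma-trend. The partner of a member was the opposite-strand gene sharing the most bases with it by gene start and gene end. A partner was found for 127 of the 152 members, and 115 of these partners were protein-coding. In 42 pairs the genes were head-to-head with overlapping starts and in 38 tail-to-tail. The antisense gene lay inside its partner in 33 pairs and enclosed it in 14. No opposite-strand gene listed in the count table overlapped the other 25 members, though 5 of these had exonic bases over annotated opposite-strand exons. More than 1 listed gene overlapped 44 members. Of the 152 members, 62 carry an AS name after another gene and 73 only a clone name.

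The control mean of the members had a median of 164 and ran from 100.2 for TTN-AS1 to 2687 for FGD5-AS1. Just inside the limit of 100 were TTN-AS1 at 100.2 and PRKCZ-AS1 at 101, and just outside it were AC137932.3 at 98.9 and AC092611.2 at 97.9. TTN-AS1 runs opposite the titin gene, and PRKCZ-AS1 lies within the gene of protein kinase C zeta. Compared per kilobase of exon in mock control, the partner was higher than the member in 74 pairs and lower in 53, with a median ratio of partner to member of 1.8. The partner was more than 10 times higher in 16 pairs, and the antisense gene was more than 10 times higher in 10.

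The annotated 3′ ends of the 5 members called below are shown first, since 3′ ends are where CFIm25 is known to act. The last 100 bases of each are given in the sense direction, as DNA letters, from the canonical transcript of the GENCODE annotation. Capitals mark TGTA anywhere in the stretch and the poly(A) signals AATAAA and ATTAAA in its final 50 bases.
AC009133.3: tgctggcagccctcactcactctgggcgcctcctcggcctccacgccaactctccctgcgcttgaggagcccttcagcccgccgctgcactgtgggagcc
GABPB1-AS1: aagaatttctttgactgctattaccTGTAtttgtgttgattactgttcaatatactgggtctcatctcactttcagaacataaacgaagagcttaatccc
PCAT7: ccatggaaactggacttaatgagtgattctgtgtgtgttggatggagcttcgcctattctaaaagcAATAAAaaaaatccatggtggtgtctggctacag
HDAC2-AS2: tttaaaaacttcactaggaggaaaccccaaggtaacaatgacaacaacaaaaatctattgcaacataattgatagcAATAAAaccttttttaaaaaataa
AC078993.1: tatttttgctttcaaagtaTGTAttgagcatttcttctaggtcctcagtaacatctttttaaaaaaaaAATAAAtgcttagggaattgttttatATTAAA
TGTA was present at the ends of GABPB1-AS1 and AC078993.1, and a poly(A) signal at those of PCAT7, HDAC2-AS2 and AC078993.1. Of 151 members with such a sequence, 65 held TGTA in the last 100 bases (43.0%). The share was 37.9% of all 1255 tested antisense genes, 54.0% of 126 partners and 54.9% of 14717 tested protein-coding genes. AATAAA or ATTAAA was within the last 50 bases of 46.4% of the members, 44.8% of all 1255 tested antisense genes and 81.8% of the protein-coding genes. These are annotated ends and were not measured in these libraries, and a match is a description of letters only.

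How much of a member's count came from its own strand limits the values of members lying over opposite-strand exons or introns. The sources used here do not state whether reads were counted by strand. In the count table, 6.67% of 390 annotated lncRNA genes whose exonic bases all lay over exons of the opposite strand were listed, against 72.5% of those with a cover above 0 and up to 75%, and 52.8% of those with none. For protein-coding genes the shares were 8% of 25, 95.4% and 83.6%. Genes covered wholly by opposite exons were thus seldom listed. Where exons of both strands overlap, these counts do not show whether shared reads were left out or counted for a gene. Where a member's exons lie over opposite-strand introns, the counts do not show which strand a read came from. A median of 6.37% of a member's exonic bases lay over opposite-strand exons and 17.9% over opposite-strand introns. The exon share was over 50% in 14 members, AC078993.1 among them, and 0 in 36.

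**Figure D1:**
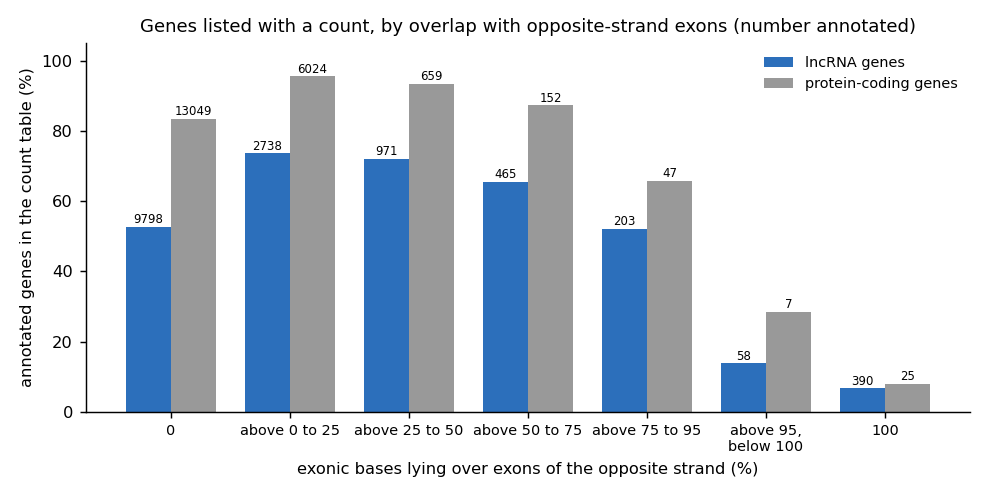
Percentage of annotated lncRNA and protein-coding genes that the count table lists (y axis), by the share of their exonic bases that lies over exons of the opposite strand (x axis), with the number of annotated genes above each bar. The bars fall from 73.8% for lncRNA genes with a small cover to 6.67% for those covered in full.

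Between mock control and CFIm25-m, 5 of the 152 members were called. AC009133.3, GABPB1-AS1 and PCAT7 rose, and HDAC2-AS2 and AC078993.1 fell. In these bulk samples a change in RNA per cell and a change in the share of cells with the RNA cannot be told apart. This was 3.29% of the members, beside 1.88% of all tested genes (0.941% higher and 0.936% lower) and 2.23% of the 12229 tested genes with a control mean of at least 100. Without adjustment, 18 members had p under 0.05 in the higher direction and 6 in the lower (15.8%), beside 1536 and 1375 of all tested genes (15.1%) and 130 and 29 of the 1274 tested antisense genes. The CFIm25-m clones and the mock controls did not overlap in 54 members (35.5%), and in 36.8% of all tested genes. The share of members called was thus not far from that of other genes, and the members' own control values had chosen them. DESeq2 on the recovered reads called 8 members (6 higher) and 628 genes in all, and edgeR called 5 and 348, beside 361 genes by limma-trend. With limma and no variance trend 0 members were called and 20 had an unadjusted p under 0.05, with 46 calls among all genes. Without mock control replicate 1 or 2, 1 member was called in each case, HDAC2-AS2, among 63 and 60 genes. Without CFIm25-m replicate 1, 2 or 3 the number was 4, 4 and 11, among 160, 221 and 1069 genes.

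**Figure D2:**
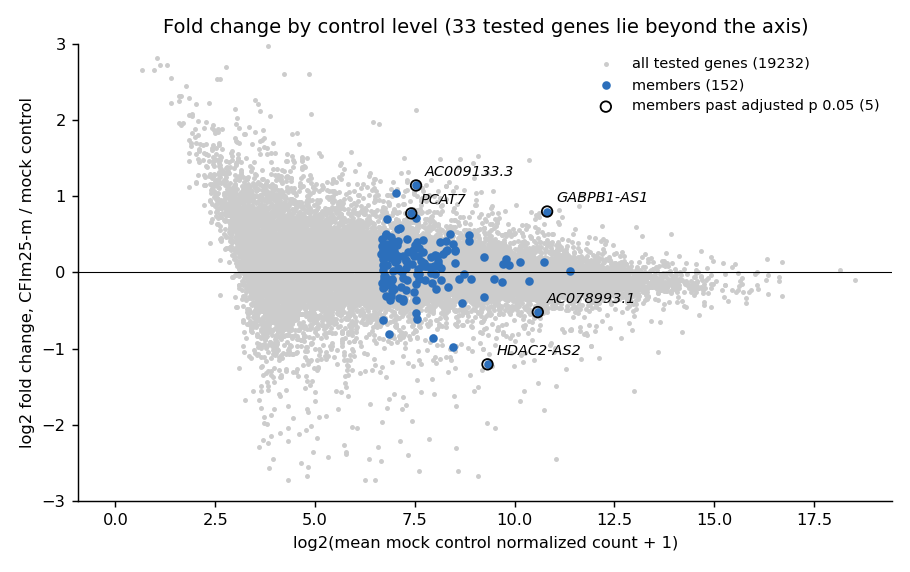
Each point is a gene, with the log2 of its mean normalized count plus 1 in mock control on the x axis and its log2 fold change between CFIm25-m and mock control on the y axis. The 152 members, in blue, begin at a control mean of 100, and the 5 circled members passed the adjusted threshold, between -1.21 for HDAC2-AS2 and 1.14 for AC009133.3.

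AC009133.3 (ENSG00000260719) had the largest increase among the members. It lies on the plus strand at chr16:29745247-29748299 (GRCh38), head-to-head with C16orf54, with 760 shared bases. Its normalized count was 184 and 183 in mock control and 360, 378 and 495 in CFIm25-m, so the groups were well separated and replicate 3 was highest. The log2 fold change was 1.14 (SE 0.16, adjusted p = 0.00705). C16orf54 had 143 and 174 in mock control and 255, 303 and 482 in CFIm25-m. Its groups did not overlap either, and its log2 fold change of 1.08 (SE 0.24) did not pass the threshold (adjusted p = 0.06). With DESeq2 it did (adjusted p = 0.00139), as it did without CFIm25-m replicate 3 (0.0141). The ratio of antisense to partner differed by 0.06 on the log2 scale between the groups (adjusted p = 0.947). None of the exonic bases of AC009133.3 lay over an exon of the other strand. The adjusted p of AC009133.3 was 0.0883 and 0.0835 without mock control replicate 1 or 2.

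GABPB1-AS1 (ENSG00000244879), the second most abundant member, rose, and its partner was not called. It lies on the plus strand at chr15:50354959-50372202 and overlaps the first 450 bases of GABPB1, which encodes the beta subunit of the ETS-family transcription factor GABP. GABPB1-AS1 had 1780 and 1816 in mock control and 2836, 2710 and 3989 in CFIm25-m, again with no overlap and with replicate 3 highest. The log2 fold change was 0.80 (SE 0.15, adjusted p = 0.0301). GABPB1 had 574 and 514 in mock control and 505, 484 and 444 in CFIm25-m (log2 fold change -0.19, SE 0.12, adjusted p = 0.49). Its clones lay just under the lower mock control. The log2 ratio of antisense to partner was 0.99 higher in CFIm25-m (SE 0.24), which did not pass the threshold over all pairs (adjusted p = 0.131). Of the exonic bases of GABPB1-AS1, 93% lay opposite no gene. Its adjusted p was 0.24 and 0.193 without mock control replicate 1 or 2 and 0.0911 without CFIm25-m replicate 1. It was 0.177 when the samples were centred on antisense, sense_intronic and TEC genes.

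PCAT7 (ENSG00000231806) rose from a lower level. It extends over chr9:94555054-94603990 on the plus strand and encloses FBP2, the muscle form of fructose-1,6-bisphosphatase, an enzyme of gluconeogenesis. The end of PCAT7 also reaches the last 858 bases of FBP1, the liver form. PCAT7 had 175 and 163 in mock control and 318, 254 and 302 in CFIm25-m, without overlap. The log2 fold change was 0.77 (SE 0.15, adjusted p = 0.0354). FBP2 had 18.4 and 18.3 in mock control and 33.1, 25.2 and 28.9 in CFIm25-m (log2 fold change 0.62, adjusted p = 0.389). FBP1 had 17.3 and 23.2 in mock control and 39.1, 43.2 and 37.5 in CFIm25-m (log2 fold change 0.96, adjusted p = 0.161). Both enzymes were close to the filter on low counts, and neither passed the threshold. Of the exonic bases of PCAT7, 80.8% lay within introns of opposite-strand genes, and whether its reads came from its own strand was not tested. Its adjusted p was 0.282 and 0.383 without mock control replicate 1 or 2, 0.137 without CFIm25-m replicate 1 and 0.248 with the centring on antisense, sense_intronic and TEC genes.

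HDAC2-AS2 (ENSG00000228624) had the largest decrease and was the member called under most alternatives. It starts inside HDAC2, the gene of a class I histone deacetylase, and runs far beyond it on the plus strand at chr6:113969701-114471705. It encloses HS3ST5, which encodes a heparan sulfate 3-O-sulfotransferase. HDAC2-AS2 had 634 and 643 in mock control and 285, 244 and 302 in CFIm25-m, so every clone was far below both mock controls. The log2 fold change was -1.21 (SE 0.13, adjusted p = 0.00206). HS3ST5 had higher values in the clones, with 255 and 224 in mock control and 394, 393 and 304 in CFIm25-m. Its log2 fold change of 0.59 (SE 0.16) did not pass (adjusted p = 0.1), though it did with DESeq2 (0.0349) and without CFIm25-m replicate 3 (0.00685). HDAC2 had 7109 and 7289 in mock control and 7676, 7451 and 6560 in CFIm25-m (log2 fold change 0.0028, SE 0.10, adjusted p = 0.992), and its groups overlapped. Of the exonic bases of HDAC2-AS2, 70.7% lay within opposite-strand introns, and whether its reads came from its own strand was not tested.

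The log2 ratio of HDAC2-AS2 to HS3ST5 was 1.80 lower in CFIm25-m (ratio change -1.80, SE 0.31, adjusted p = 0.0422). It was the only one called among the 118 member pairs in which both genes were tested, beside 5 of all 1056 tested antisense pairs (0.473%). Without adjustment 11 member pairs had p under 0.05, and 121 of all pairs. The ratio did not pass without mock control replicate 1 (adjusted p = 0.364) or 2 (0.22), or without CFIm25-m replicate 1 (0.101) or 2 (0.0881). The fall of HDAC2-AS2 itself passed in each of these, with an adjusted p of 0.0436, 0.048, 0.0171 and 0.00866, and it missed the threshold with no variance trend (0.0623).

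The window of 250 bases before to 50 bases after the start of HDAC2-AS2 (RefSeq, GRCh38.p14, chr6:113969451-113969750, plus strand) is shown since this gene had the strongest decrease and its RefSeq start is the start in the count table. Capitals mark the motifs found among GGGCGG (the GC box), CCGGAAG (an ETS core) and TATAAA, each searched on both strands.
HDAC2-AS2 start: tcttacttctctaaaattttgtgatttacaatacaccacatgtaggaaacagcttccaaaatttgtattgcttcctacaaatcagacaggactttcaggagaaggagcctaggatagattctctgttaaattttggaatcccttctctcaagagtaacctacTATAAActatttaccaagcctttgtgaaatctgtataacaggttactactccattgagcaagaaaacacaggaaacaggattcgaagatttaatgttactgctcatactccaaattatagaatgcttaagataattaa
PCAT7 start: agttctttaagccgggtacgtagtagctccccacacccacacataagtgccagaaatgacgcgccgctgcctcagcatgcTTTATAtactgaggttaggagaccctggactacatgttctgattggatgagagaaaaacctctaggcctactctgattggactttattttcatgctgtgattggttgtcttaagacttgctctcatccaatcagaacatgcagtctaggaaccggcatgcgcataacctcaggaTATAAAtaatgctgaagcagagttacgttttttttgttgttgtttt
MED14OS start: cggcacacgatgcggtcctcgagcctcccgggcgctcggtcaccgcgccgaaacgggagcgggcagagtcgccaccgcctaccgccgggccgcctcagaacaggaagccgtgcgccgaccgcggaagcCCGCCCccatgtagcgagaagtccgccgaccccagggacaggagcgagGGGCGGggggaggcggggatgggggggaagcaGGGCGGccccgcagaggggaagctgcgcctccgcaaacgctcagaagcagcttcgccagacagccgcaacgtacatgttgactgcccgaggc
Beside it are a start of PCAT7 (chr9:94554833-94555132, plus strand, 29 bases from the start in the table) and that of MED14OS (chrX:40735440-40735739, plus strand, 290 bases from it), a member head-to-head with a partner that fell. The HDAC2-AS2 window held 1 CG dinucleotide and 1 TATAAA, the PCAT7 window 8 and 2, and the MED14OS window 38 CG dinucleotides and 3 GC boxes. Across the 89 members with a RefSeq window, the median was 24 CG dinucleotides, beside 14 over all 35116 windows. GGGCGG was found in 59.6% of the members' windows and 45.0% of all windows, CCGGAAG in 15.7% and 10.3%, and TATAAA in 4.49% and 11.5%.

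AC078993.1 (ENSG00000238178) fell together with the genes at both of its ends. It lies on the minus strand at chrX:16152941-16170869. MAGEB17, a member of the MAGE family, is head-to-head with it, and the end of GRPR, the gastrin-releasing peptide receptor, overlaps its other end by 81 bases. AC078993.1 had 1498 and 1560 in mock control and 1028, 1012 and 1159 in CFIm25-m (log2 fold change -0.52, SE 0.10, adjusted p = 0.0319). MAGEB17 had 120 and 132 in mock control and 27.1, 41.4 and 60.6 in CFIm25-m (log2 fold change -1.60, SE 0.32, adjusted p = 0.0365). GRPR had 2565 and 2605 in mock control and 1814, 1825 and 1863 in CFIm25-m (log2 fold change -0.49, SE 0.09, adjusted p = 0.0207). In none of these genes did the groups overlap. Of the exonic bases of AC078993.1, 63.4% lay over annotated exons of the opposite strand, and whether its reads came from its own strand was not tested. The calls of AC078993.1 and MAGEB17 were lost without mock control replicate 1 (adjusted p = 0.341 and 0.24) or 2 (0.423 and 0.306), without CFIm25-m replicate 1 (0.113 and 0.0957) and without replicate 2 (0.0801 and 0.101).

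**Figure D3:**
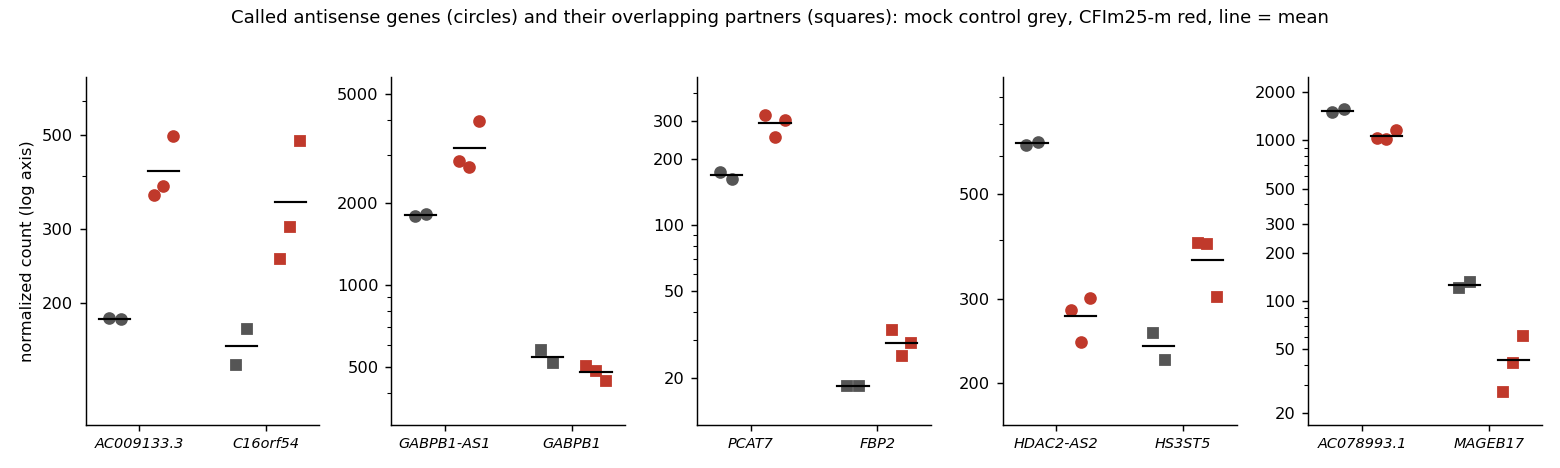
Normalized counts on a log axis of the 5 called antisense members (circles) and their partners (squares) in 2 mock control samples (grey) and 3 CFIm25-m clones (red), with a line at each group's mean. GABPB1-AS1 stands above its mock controls while GABPB1 lies slightly below, and HDAC2-AS2 and HS3ST5 lie on opposite sides of theirs.

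Of the 126 distinct partners 117 were tested, and 3 were called, all lower: MAGEB17, SEMA6A and MED14. This was 2.56% of them, beside 1.88% of all tested genes. SEMA6A, a transmembrane semaphorin of axon guidance, had 18890 and 18814 in mock control and 10672, 9792 and 12712 in CFIm25-m (log2 fold change -0.78, SE 0.12, adjusted p = 0.0123). SEMA6A-AS1, which lies wholly within SEMA6A, had 395 and 427 in mock control and 255, 241 and 484 in CFIm25-m. Replicates 1 and 2 were below the mock controls and replicate 3 was above both, and its log2 fold change of -0.41 (SE 0.26) was not called (adjusted p = 0.496). Without replicate 3 it was -0.73 and passed (adjusted p = 0.00497). Of the exonic bases of SEMA6A-AS1, 90.5% lay within opposite-strand introns, and whether its reads came from its own strand was not tested.

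MED14, the scaffold subunit of the Mediator complex, had 7952 and 7678 in mock control and 5702, 4447 and 3884 in CFIm25-m (log2 fold change -0.76, SE 0.14, adjusted p = 0.0309). MED14OS, its head-to-head antisense neighbour, had 105 and 123 in mock control and 84.2, 63.9 and 49.1 in CFIm25-m. The clones stood in the same order in both genes, and MED14OS (log2 fold change -0.81, SE 0.26) did not pass (adjusted p = 0.17). Of the exonic bases of MED14OS, 23.6% lay over opposite-strand exons and 19.9% within opposite-strand introns. Whether its reads came from its own strand was not tested. Neither SEMA6A nor MED14 was called without mock control replicate 1 (adjusted p = 0.2 and 0.281) or 2 (0.183 and 0.21). SEMA6A also missed the threshold without CFIm25-m replicate 1 (0.0787) and MED14 without CFIm25-m replicate 2 (0.104).

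In the 118 pairs with both genes tested, both fold changes were above 0 in 41 and both below 0 in 25. The antisense gene was above 0 and its partner below in 38, and the reverse held in 14. The pair thus lay on the same side in 55.9%, and in 55.8% of all 1056 tested antisense pairs. The share on the same side was 50% of the head-to-head pairs and 61.3% of the pairs with the antisense gene inside its partner. In 25 pairs the clones and mock controls did not overlap for either gene, on the same side in 15 and on opposite sides in 10. This was 21.2% of the member pairs, beside 13.6% of all tested antisense pairs, of which 89 were on the same side and 55 on opposite sides. The median fold change of the 117 partners was -0.02.

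**Figure D4:**
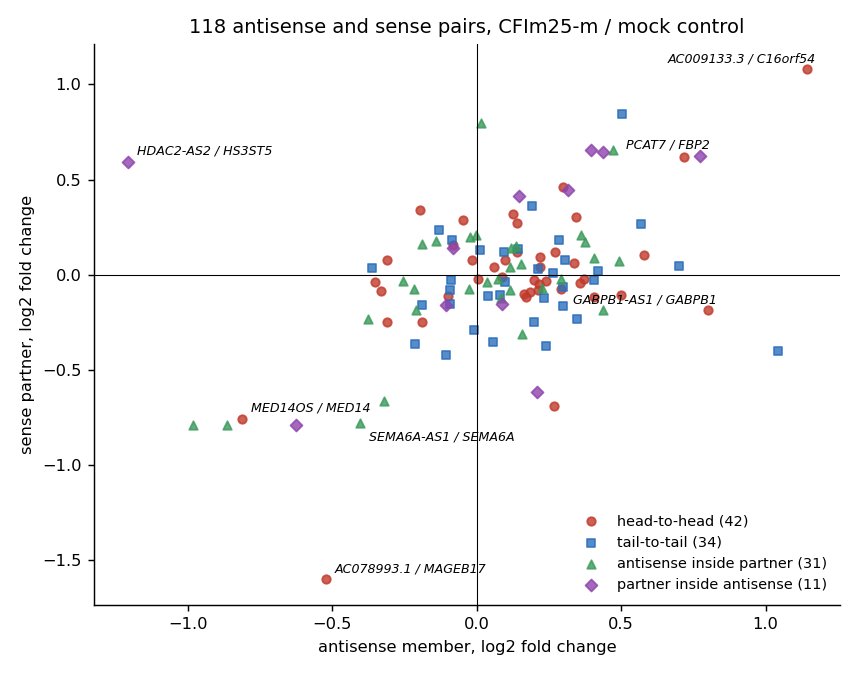
Log2 fold change of each antisense member (x axis) against that of its partner (y axis) for the 118 pairs in which both were tested, with the arrangement of the 2 genes given by colour and shape. AC009133.3 and C16orf54 lie at 1.14 and 1.08, HDAC2-AS2 and HS3ST5 at -1.21 and 0.59, and AC078993.1 and MAGEB17 at -0.52 and -1.60. Names are given for pairs in which a gene was called.

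The other most abundant members were called in no direction. FGD5-AS1, the highest, overlaps the 3′ end of FGD5, a guanine nucleotide exchange factor. It had 2629 and 2746 in mock control and 2697, 2751 and 2679 in CFIm25-m (log2 fold change 0.01, SE 0.09, adjusted p = 0.963). FOXD3-AS1 is head-to-head with FOXD3, a transcription factor of pluripotent cells and the neural crest. It had 1784 and 1637 in mock control and 1851, 1896 and 1903 in CFIm25-m (log2 fold change 0.14, SE 0.09, adjusted p = 0.498). FOXD3 itself differed by 0.12 on the log2 scale (adjusted p = 0.65). AC006329.1 has no partner listed in the table, but 83.1% of its exonic bases lay over annotated opposite-strand exons. It had 1350 and 1253 in mock control and 1231, 1264 and 1117 in CFIm25-m (log2 fold change -0.11, SE 0.10, adjusted p = 0.624). CCDC144NL-AS1 had 1143 and 1094 in mock control and 1375, 1108 and 1224 in CFIm25-m (log2 fold change 0.14, SE 0.11, adjusted p = 0.589). In FGD5-AS1, AC006329.1 and CCDC144NL-AS1 the groups overlapped. At this depth the standard error of a member had a median of 0.19.

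A few members that missed the threshold were chosen after their values were seen, since their groups were apart. SLC25A25-AS1 runs tail-to-tail into SLC25A25, a mitochondrial ATP-Mg/phosphate carrier. It had 135 and 124 in mock control and 227, 222 and 383 in CFIm25-m (log2 fold change 1.04, SE 0.23, adjusted p = 0.0569). SLC25A25 had 622 and 642 in mock control and 469, 507 and 459 in CFIm25-m (log2 fold change -0.40, adjusted p = 0.112). AL591845.1 and its head-to-head partner EVA1B were both above the mock controls, with log2 fold changes of 0.72 (adjusted p = 0.0692) and 0.62 (0.0877). TSPEAR-AS1 and TSPEAR-AS2 lie in the same gene, TSPEAR. TSPEAR-AS2 had 368 and 328 in mock control and 289, 136 and 138 in CFIm25-m (log2 fold change -0.98, adjusted p = 0.145). TSPEAR-AS1 had 273 and 218 in mock control and 210, 104 and 110 in CFIm25-m (log2 fold change -0.86, adjusted p = 0.187), and TSPEAR itself was not called (log2 fold change -0.79, adjusted p = 0.121). In this locus replicates 2 and 3 stood lower than replicate 1 in both antisense genes.

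As a group the members leaned upward by a small amount, unevenly over the clones. Their median log2 fold change was 0.12, beside -0.01 for all tested genes and -0.03 for protein-coding genes, and it was above 0 in 98 of 152 members. All 1274 tested antisense genes had a median of 0.20. The median was 0.13 for the 1015 tested long intergenic noncoding (lincRNA) genes. It was 0.01 for the 154 of these with a control mean of at least 100. Over the members, the median log2 difference from the control mean was 0.10, 0.0006 and 0.23 in CFIm25-m replicates 1, 2 and 3, and it was -0.01 for mock control replicate 2 less replicate 1. Less the same median over protein-coding genes, these were 0.11, 0.0064 and 0.30. Replicate 3 was the highest of the 5 samples in 71 members (46.7%). The share was 46.5% in all tested antisense genes and 27.9% in all tested genes. In lincRNA genes it was 38.9% of all tested and 44.8% of those with a control mean of at least 100. Replicate 3 was at least 1.5-fold above the control mean in 31 members, replicate 1 in 4 and replicate 2 in 5. In the same order the counts were 2986, 1673 and 1721 of all 19232 tested genes. They were 511, 268 and 223 of the 1274 tested antisense genes. All clones were above the control mean in 52 members and all below it in 25, a count not made over all tested genes. Without replicate 3 the members' median less that of protein-coding genes was 0.08, and 0.15 with it. The part of replicate 3's difference in these values was not tested.

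Centring each sample on antisense, sense_intronic and TEC genes, the class the members belong to, lowers every fold change alike (shift of the median of all tested genes -0.22). The members' median was then -0.10, with 53 of 152 above 0, and by construction the difference from protein-coding genes stays at 0.15. With that centring 3 members were called, 1 higher (AC009133.3) and 2 lower (HDAC2-AS2 and TSPEAR-AS2), beside 3 higher and 2 lower with the deposited scaling.

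By arrangement, the median log2 fold change was 0.18 for the 42 head-to-head members, 0.13 for the 38 tail-to-tail members, 0.09 for the 33 inside their partner, 0.18 for the 14 that enclosed it and -0.04 for the 25 with no partner. The differences between arrangements were not tested. Arrangement was set by the partner alone, and of 59 members overlapping the gene they are named after, 46 had it as partner. In head-to-head members the median was similar in the 3 clones, at 0.17, 0.13 and 0.18. In tail-to-tail members it was 0.10, 0.03 and 0.35, with replicate 3 highest of all samples in 25 of 38. Members with an AS name had a median of 0.20, and 48 of 62 were above 0. Those with only a clone name had a median of 0.08.

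**Figure D5:**
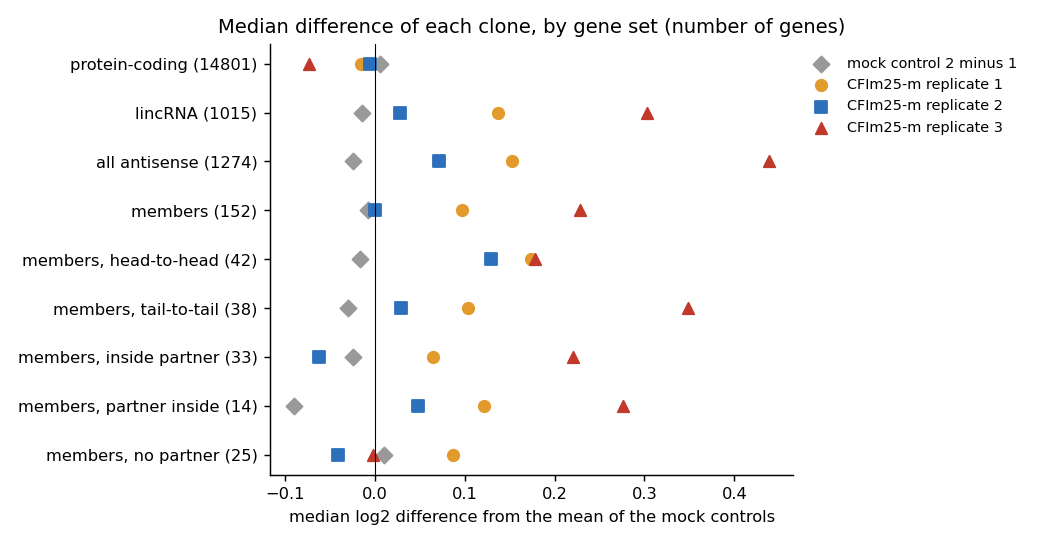
Median log2 difference of each CFIm25-m clone from the control mean (x axis) for the sets of genes named on the y axis, with the number of genes and with the difference between the mock controls as a grey diamond. Replicate 3 is at 0.23 over all members and at 0.35 over tail-to-tail members, while protein-coding genes are at -0.07 in that clone.

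Genes of RNA decay and of double-stranded RNA were examined from fixed lists. Among 25 tested genes of RNA decay (the exosome, its nucleases and nuclear adaptors, and the exonuclease XRN2), 0 were called by limma-trend, with a median log2 fold change of -0.02, and 1 had an unadjusted p under 0.05, EXOSC6 in the higher direction. Among 20 tested genes that bind, edit or sense double-stranded RNA, 0 were called, with a median of -0.08. IFIH1, the cytoplasmic sensor MDA5, was the only one of these with an unadjusted p under 0.05 (log2 fold change 0.92, adjusted p = 0.18). By edgeR and by DESeq2, 0 genes of either list were called. Over all tested genes the median log2 fold change was -0.01. By limma-trend 1.88% of them were called and 15.1% had an unadjusted p under 0.05. At that share of calls, lists of this size could hold none.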

How the data were processed

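Poly(A)+ RNA-seq of 2 mock control and 3 CFIm25-m samples was used, grouped by their labels. The authors deposited 1 table of normalized counts, a signal of read counts divided by a size factor per sample. The submitters' processing notes name HISAT2, featureCounts, DESeq2 and hg38, while the strand setting and annotation release are not given in the sources used here. Of genes matched by symbol to RefSeq GRCh38.p14, 99.9% overlapped its position. The table's own group means, fold changes and p-values were not used.

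Dividing by the step of each sample gave whole reads for 100% of values (within 0.001 of a read), with 18754108 to 23372391 reads per sample. Intervals and errors rest on the spread between these samples, with each gene's variance drawn toward that of other tested genes.

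Genes that reached 10 in 2 or more samples entered limma 3.58.1 (R 4.3.3; lmFit and eBayes with trend) on log2(value + 1), without covariates. This scale understates the change of genes with low counts. Ratios of antisense to partner were tested likewise over all 1056 pairs. DESeq2 1.42.0 and edgeR 4.0.16 on the recovered reads were alternatives, since the deposited values are not raw counts. No DESeq2 or edgeR result is the main one. On simulated counts for 19232 genes, limma-trend recovered 100% of 4-fold and 90% of 2-fold changes, and 8.21% of its calls were false. For simulated pair ratios over 1056 pairs, it recovered 85.7% and 25%. Every simulated gene had the same dispersion, and only genes above a set mean were changed. These rates may therefore not hold for the spread between these clones.

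Overlaps with exons and introns of the other strand came from the GENCODE annotation on GRCh37, as shares of bases only. Promoter windows came from RefSeq (89 of 152 members matched). The members and lists were chosen with earlier results of these data known. Genes named are the called members and partners, called ratios, the 6 highest members, those next to the limit of 100, and others said to be chosen after their values were seen. Alternatives were other pseudocounts, filters, scalings, variance models, a replicate block, each sample left out, both count-based tests, and other rules for members and partners.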

Additional observations from a re-analysis of the deposited data

How the results depend on the processing

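The number of members called was 5 in the main analysis (3 higher, 2 lower), 3 partners were called and 1 pair ratio. With pseudocounts of 0.5 or 5, other filters, TMM scaling or edgeR, the members and partners called stayed 5 and 3. Centring on antisense, sense_intronic and TEC genes gave 3 members, 1 of them higher. With no variance trend, 0 members, 0 partners and 0 ratios passed. DESeq2 gave 8 members, 6 higher, and 7 partners. A control mean of at least 200 left 3 members called, 1 of them higher. With partners chosen by symbol, 1 partner was called. The ratio count was 0 with a pseudocount of 0.5 and with no filter, and 2 with a value of at least 50. Leaving out each sample in turn gave 1 to 11 members (0 to 6 higher and 1 to 5 lower), 0 to 11 partners and 0 to 1 ratios. The median difference from protein-coding genes, 0.15, stayed between 0.08 and 0.21 under every setting run.

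Replicate numbers are shared by 2 pairs of samples only, and deviations of same-numbered samples correlated at 0.0072 and 0.018 across genes, so they were not taken as pairs. With the replicate block, in which CFIm25-m replicate 3 carries no weight as the only sample of its number, 18 members (9 higher, 9 lower), 20 partners and 0 ratios were called, and 2107 genes in all.

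The centring on antisense, sense_intronic and TEC genes lowers every fold change by about 0.22, so values between 0 and that size turn negative by construction, to -0.21 for FGD5-AS1, -0.080 for FOXD3-AS1, -0.082 for CCDC144NL-AS1, -0.090 for FGD5 and -0.10 for FOXD3. Leaving out 1 sample in turn gave -0.019 to 0.043 for FGD5-AS1, the negative value without mock control replicate 1. None of these was called under any setting. With 2 mock controls the precision is limited, and without either of them HDAC2-AS2 was the 1 member called. The causes of the other changes were not tested.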

Other observations

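Outside the members, 8 further antisense genes were called, 7 of them below the level set for membership and AC004687.1 left out by name. Of all 1274 tested antisense genes, members among them, 1.02% were called, beside 1.88% of all tested genes. Some of these had larger changes than any member. ZNF790-AS1, tail-to-tail with the zinc finger gene ZNF790, had 8.07 and 23.2 in mock control and 131, 104 and 132 in CFIm25-m (log2 fold change 3.05, SE 0.38, adjusted p = 0.00431, limma-trend). ZNF790 had 108 and 146 in mock control and 128, 92.7 and 128 in CFIm25-m, with overlapping groups. AZIN1-AS1, head-to-head with AZIN1, an inhibitor of antizyme in polyamine metabolism, had 61.1 and 64.7 in mock control and 145, 188 and 149 in CFIm25-m (log2 fold change 1.33, adjusted p = 0.0089), while AZIN1 had 7027 and 7048 in mock control and 7496, 8342 and 6969 in CFIm25-m. The ratio of antisense to partner passed for both pairs. NR2F1-AS1 had 12.7 and 11.6 in mock control and 38.1, 45.0 and 48.1 in CFIm25-m (log2 fold change 1.76, adjusted p = 0.0207). Its partner NR2F1, a nuclear receptor of neural development, was at 0 in both mock controls and at 0, 0.9 and 2.89 in CFIm25-m, at or under 3 reads.

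AC093797.1, which lies within SORBS2, the gene of a cytoskeletal adaptor protein, had 0 and 1.93 in mock control and 17.0, 11.7 and 13.5 in CFIm25-m (adjusted p = 0.0327). SORBS2 had 398 and 397 in mock control and 1426, 980 and 993 in CFIm25-m (log2 fold change 1.49, adjusted p = 0.00196). Of the exonic bases of AC093797.1, 97.1% lie within opposite-strand introns, and whether its reads came from its own strand was not tested. PKN2-AS1 had 2.31 and 1.93 in mock control and 14, 16.2 and 13.5 in CFIm25-m (adjusted p = 0.0367). In the lower direction, CYP1B1-AS1 had 105 and 57.9 in mock control and 9.02, 14.4 and 18.3 in CFIm25-m (log2 fold change -2.46, adjusted p = 0.0136). CYP1B1, a cytochrome P450, had 122 and 135 in mock control and 88.2, 106 and 68.3 in CFIm25-m (log2 fold change -0.57, adjusted p = 0.27). AL009031.1, within GMPR, had 49.6 and 49.2 in mock control and 5.01, 5.4 and 3.85 in CFIm25-m (log2 fold change -3.14, adjusted p = 0.00431). GMPR had 26.5 and 28.0 in mock control and 0, 15.3 and 5.77 in CFIm25-m (log2 fold change -2.56, adjusted p = 0.242). All exonic bases of AL009031.1 (100%) lie within opposite-strand introns, and whether its reads came from its own strand was not tested. These 8 genes were chosen after their values were seen. PKN2-AS1 and AC093797.1 passed the filter on low counts only through the CFIm25-m clones, and AL009031.1 only through the mock controls. The values being compared thus admitted these genes to the test, and their adjusted p is no separate support for a change. In mock control, PKN2-AS1 and AC093797.1 were at or under 3 reads.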
